A study of Mus musculus with 4 samples.

Results

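The acute phase proteins examined here are the products of 10 genes: Saa1, Saa2 and Saa3 (serum amyloid A), Hp (haptoglobin), Orm1 and Orm2 (orosomucoids), Fga, Fgb and Fgg (the fibrinogen chains) and Lcn2 (lipocalin 2). They were chosen by name, as every non-control probe whose gene name on the array is one of these symbols, which gave 12 of 56603 probes and 10 of 20614 gene names that were well above background on at least 1 array. Their transcripts were measured in primary hepatocytes of C57BL/6 mice 24 h after the cells were seeded, on 4 arrays that stand for 4 groups. Cells of each genotype, control and Drp1LiKO, were either untreated or given palmitate at 200 μM, and the labels do not give how long palmitate was present or the age of the mice. In Drp1LiKO mice the floxed gene of Drp1, the dynamin-related protein that divides mitochondria, is recombined by an Alb-Cre transgene, so the deletion is driven by the albumin promoter in hepatocytes. The labels call the control cells wild-type, while the study's methods name them as Drp1 flox/flox littermates and give all animals as male. Palmitate is a saturated fatty acid, and the study compared the genotypes with and without it to examine lipid handling and inflammation.

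The acute phase response is the change in liver protein output that follows injury or infection. Macrophages and other cells release IL-6, which acts on hepatocytes through gp130 and STAT3, and IL-1, which acts through NF-kB, and both work with C/EBP factors at the promoters of the acute phase genes. Serum amyloid A is induced by IL-1 and IL-6 together, fibrinogen mainly by IL-6, and albumin and transthyretin belong to the negative acute phase proteins, whose output drops.

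Values are normalized log2 intensities, where 0 is the 75th percentile of the array, so a value shows a transcript relative to the bulk of the array. With 1 array per group no difference between 2 arrays has a replicate check. The scanner's own error, carried over to a difference between 2 arrays, was about 0.20 on the log2 scale for every member in every comparison and covers the reading of the spots only. All 10 members were well above background on all 4 arrays, between 44.7% and 51.1% of probes were, and 0 spots were saturated. The probe that stands for Dnm1l, the gene of Drp1, read 2.42 and 2.43 in control and 1.07 and 1.01 in Drp1LiKO without and with palmitate. All 10 hepatocyte markers of a list that holds Apob, Cps1 and Hnf4a were well above background on every array, with a summed level of 74.8, 76.5, 71.9 and 65.4 times the 75th percentile in control, Drp1LiKO, control with palmitate and Drp1LiKO with palmitate. Both untreated arrays share slide 1 and both palmitate arrays slide 2. A palmitate effect and a slide effect cannot be told apart, but the genotypes are compared within each slide.

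The serum amyloid A genes were lower in Drp1LiKO. Saa1 and Saa2 encode the circulating proteins that travel with high-density lipoprotein in inflammation, and Saa3 encodes a form made in liver and in other tissues. The 60-base probes that read Saa1 and Saa3 are shown because the family is closely related. No other probe of the array shared a stretch of 20 bases with them or with any other member's probe. Probes were compared with probes only, so binding of a probe to the transcript of a related gene was not tested. Coordinates of probes are in mm9, the build of the array's annotation, and exon borders were not read here.
Saa1 probe, chr7:53996070-53996129, minus strand: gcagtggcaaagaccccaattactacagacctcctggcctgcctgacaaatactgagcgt
Saa3 probe, chr7:53967559-53967618, minus strand: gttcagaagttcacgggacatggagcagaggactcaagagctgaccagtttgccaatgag

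Saa1 read 7.83 in control, 6.27 in Drp1LiKO, 7.77 in control with palmitate and 6.69 in Drp1LiKO with palmitate. Both Drp1LiKO arrays thus lay below both control arrays, by 1 log2 unit or more. Saa1 was 2.95-fold lower in Drp1LiKO in untreated cells (log2 difference −1.56) and 2.11-fold lower with palmitate (−1.07). Only 3.09% and 3.80% of all genes tested in these comparisons had a lower difference. Palmitate moved Saa1 by −0.06 in control and by 0.43 in Drp1LiKO, although the response in control was within 2 scanner errors of 0. Read on the probe that stands for each gene, Saa1 was the single member whose responses had opposite signs in the genotypes. A second, dimmer Fga probe also had opposite signs, −0.17 in control and 1.03 in Drp1LiKO.

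Saa2, whose probe lies at chr7:54009535-54009594, read 8.32 in control, 6.90 in Drp1LiKO, 8.42 in control with palmitate and 7.39 in Drp1LiKO with palmitate. The split between the genotypes matched that of Saa1 on both slides, while the order of the control arrays did not. Saa2 was 2.67-fold lower in untreated Drp1LiKO cells (−1.42) and 2.04-fold lower with palmitate (−1.03). Saa3 read 4.94, 4.08, 5.11 and 4.61 in the same order of groups, lower in Drp1LiKO by 1.81-fold without palmitate (−0.86) and by 1.41-fold with it (−0.49). For all 3 genes the gap between the genotypes was narrower on the palmitate slide, since the Drp1LiKO level was higher there by 0.43 (Saa1), 0.49 (Saa2) and 0.53 (Saa3) while the control level moved by −0.06, 0.10 and 0.17. The calls of Saa1 and Saa2 with palmitate sat close to the 2-fold limit, and under quantile normalization they were −0.99 and −0.91. Because RNA came from whole cultures, fewer cells of a type and less RNA per cell cannot be told apart in any of these values.

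**Figure D1:**
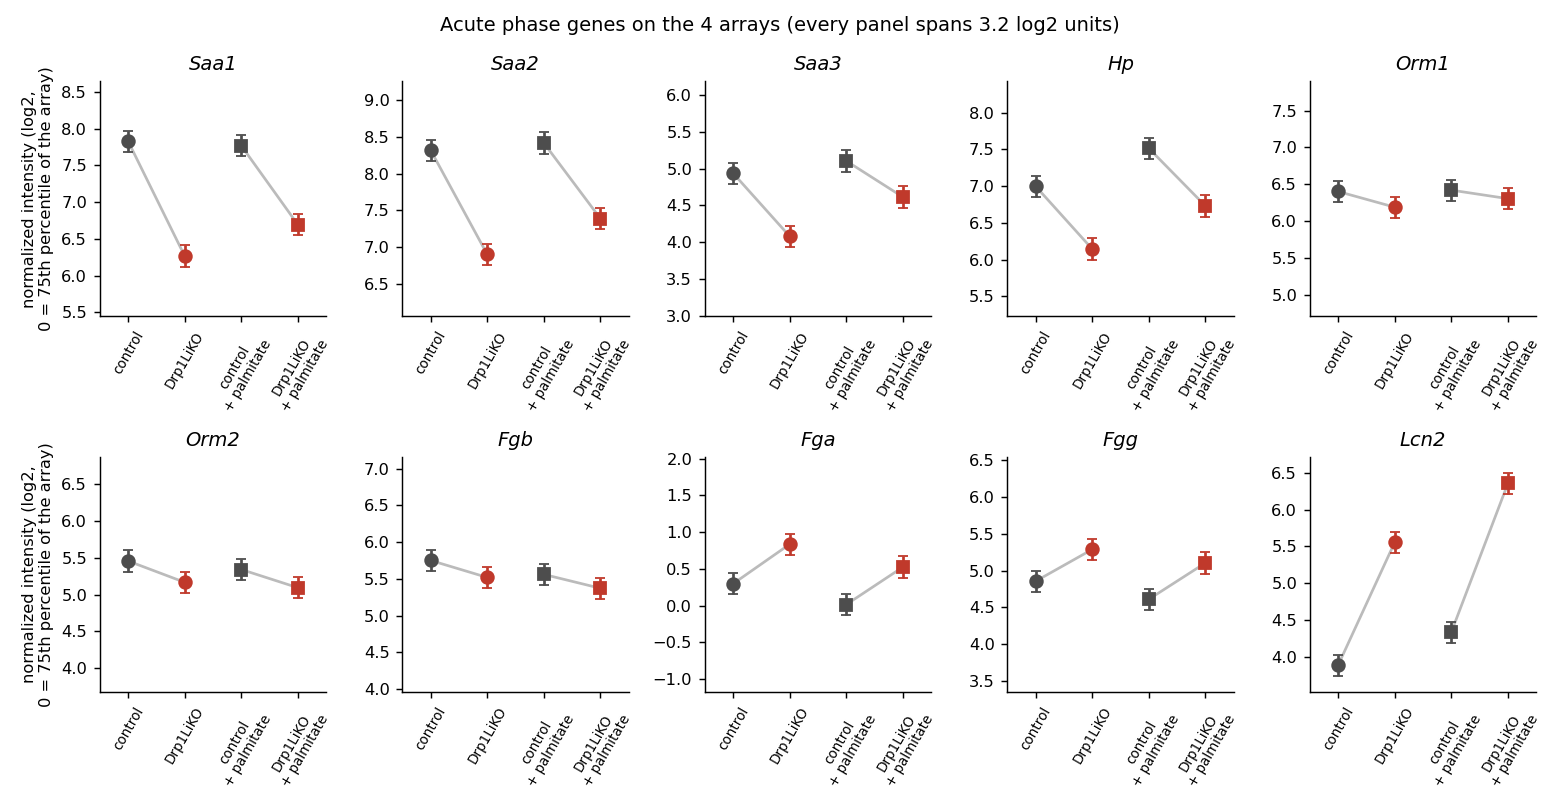
Normalized log2 intensity of the 10 acute phase genes (vertical axis, 0 is the 75th percentile of the array) on the 4 arrays, control in grey and Drp1LiKO in red, circles untreated and squares with palmitate; bars are the scanner's error of 1 array and every panel spans the same range. Saa1, Saa2, Saa3 and Hp lie lower in Drp1LiKO on both slides, and Lcn2 lies higher on both. On the probe shown, the orosomucoid and fibrinogen genes differ between the genotypes by 0.54 or less.

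The 250 bases upstream of the annotated starts of the serum amyloid A genes are shown because Saa1 and Saa2 gave near-identical patterns over the 4 arrays, with a root mean square distance of 0.0766 between their centred profiles. Closer pairs of members were Orm2 with Fgb (0.0474) and Fga, on its main probe, with Fgg (0.0557). Whether upstream sequence has a part in such likeness was not tested. The sequences are those of RefSeq on GRCm38.p6, another build than that of the probes, and the capitals mark a match to the C/EBP-type motif TTGCNNAA on either strand. The windows of Saa1 and Saa2 were identical at 238 of 249 aligned bases (95.6%), and the match lies at the same place in both, while that of Saa3 lies nearer to the start.
Saa1 upstream, chr7:46742981-46743230, minus strand: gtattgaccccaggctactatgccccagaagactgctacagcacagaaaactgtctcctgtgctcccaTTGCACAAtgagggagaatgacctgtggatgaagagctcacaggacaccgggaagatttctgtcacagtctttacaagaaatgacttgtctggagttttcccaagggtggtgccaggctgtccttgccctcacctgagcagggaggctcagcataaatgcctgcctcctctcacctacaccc
Saa2 upstream, chr7:46751583-46751832, plus strand: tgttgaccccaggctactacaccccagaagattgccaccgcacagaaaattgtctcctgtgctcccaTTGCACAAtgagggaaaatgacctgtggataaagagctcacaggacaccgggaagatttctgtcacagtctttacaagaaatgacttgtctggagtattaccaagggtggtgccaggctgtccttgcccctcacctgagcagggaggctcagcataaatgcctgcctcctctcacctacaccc
Saa3 upstream, chr7:46715677-46715926, minus strand: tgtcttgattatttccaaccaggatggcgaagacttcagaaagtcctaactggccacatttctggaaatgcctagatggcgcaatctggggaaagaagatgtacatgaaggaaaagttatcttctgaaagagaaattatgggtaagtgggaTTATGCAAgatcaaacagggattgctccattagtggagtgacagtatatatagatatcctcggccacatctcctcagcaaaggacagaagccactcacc

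Haptoglobin, which binds free haemoglobin in plasma, was lower in Drp1LiKO and higher on both palmitate arrays. Hp (probe at chr8:112099045-112099104) read 6.999 in control, 6.15 in Drp1LiKO, 7.51 in control with palmitate and 6.73 in Drp1LiKO with palmitate. Both Drp1LiKO arrays lay below both control arrays, and within each genotype the palmitate array lay above the untreated one. The genotype difference was −0.85 untreated and −0.78 with palmitate, a level 1.81-fold and 1.72-fold lower, and the palmitate response was 0.52 in control and 0.59 in Drp1LiKO. Hp and Lcn2 were the members whose palmitate response was beyond 2 scanner errors in both genotypes, and the responses of the genotypes differed by 0.07 for Hp and 0.35 for Lcn2.

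The orosomucoids, plasma carriers of drugs and lipids also called alpha-1-acid glycoproteins, showed small differences. The Orm1 probe spans 1644 bases of the genome and its annotation also lists the transcript of Orm2, so the Orm1 value is uncertain as a measure of Orm1 alone, while the Orm2 probe lists Orm2 only. Both are printed so that they can be told apart.
Orm1 probe, chr4:63007395-63009038, plus strand: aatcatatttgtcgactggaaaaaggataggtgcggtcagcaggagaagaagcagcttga
Orm2 probe, chr4:63024979-63025038, plus strand: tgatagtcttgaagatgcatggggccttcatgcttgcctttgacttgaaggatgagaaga

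Orm1 read 6.40 in control, 6.19 in Drp1LiKO, 6.42 in control with palmitate and 6.30 in Drp1LiKO with palmitate. Orm2 read 5.46, 5.17, 5.34 and 5.09 in the same order. Both genes were lower in Drp1LiKO on both slides, by −0.21 and −0.12 for Orm1 and by −0.29 and −0.25 for Orm2, but these differences were within 2 scanner errors. The palmitate responses of both genes were between −0.12 and 0.12.

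The 3 fibrinogen chains, which assemble in the hepatocyte in equal numbers into the clotting protein, did not go the same way. Fgb (chr3:82846334-82846393) read 5.75 in control, 5.52 in Drp1LiKO, 5.56 in control with palmitate and 5.37 in Drp1LiKO with palmitate, lower in Drp1LiKO by 0.23 and 0.19 on the log2 scale, within 2 scanner errors. Fgg (chr3:82818825-82818884) read 4.86, 5.29, 4.61 and 5.10 and was higher in Drp1LiKO by 0.43 and 0.49. The probe that stands for Fga read 0.30, 0.84, 0.01 and 0.52 and was higher in Drp1LiKO by 0.54 and 0.51. In all 3 genes, on the probe that stands for each, the palmitate array of each genotype lay below the untreated array. The responses were −0.19, −0.25 and −0.28 in control and −0.15, −0.18 and −0.31 in Drp1LiKO for Fgb, Fgg and Fga. Each was within 2 scanner errors. A second Fga probe, given below, was higher with palmitate in Drp1LiKO by 1.03.

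Fga has a second probe, which gave another answer, and both are shown because the value of the gene depends on which is read. The second probe read −2.51 in control, −4.12 in Drp1LiKO, −2.68 in control with palmitate and −3.09 in Drp1LiKO with palmitate. It was well above background on all 4 arrays, but its processed intensity was between 31.2 and 85.1, against 428 to 968 for the first. Its genotype differences were −1.61 and −0.41, opposite to those of the first probe, and with the mean over both probes Fga was −0.54 in untreated cells. The direction of Fga is therefore not settled by these arrays.
Fga probe, chr3:82835678-82835737, plus strand: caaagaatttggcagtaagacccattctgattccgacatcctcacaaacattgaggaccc
Fga probe, chr3:82837260-82837319, plus strand: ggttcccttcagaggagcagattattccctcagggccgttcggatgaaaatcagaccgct

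Lcn2 was the 1 member that was higher in Drp1LiKO by at least 2-fold. It encodes lipocalin 2, which binds bacterial siderophores and so withholds iron, and is made by hepatocytes, neutrophils and macrophages in inflammation. Lcn2 read 3.88 in control, 5.56 in Drp1LiKO, 4.33 in control with palmitate and 6.36 in Drp1LiKO with palmitate (probe at chr2:32240199-32240258). The control array with palmitate, the higher of the control arrays, lay more than 1 log2 unit below the lower Drp1LiKO array. Lcn2 was 3.19-fold higher in untreated Drp1LiKO cells (1.67) and 4.07-fold higher with palmitate (2.02), and it was higher with palmitate by 0.45 in control and by 0.80 in Drp1LiKO. In untreated cells 4.85% of all genes tested had a higher genotype difference, and with palmitate 3.11% had.

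The second Lcn2 probe, which spans 245 bases of the genome and is printed here because it reads the transcript at another place, went the same way. It read 1.40, 3.18, 2.01 and 4.12 in the same order of groups, with genotype differences of 1.77 and 2.11 and palmitate responses of 0.61 and 0.95. The 250 bases upstream of Lcn2 follow it, with the C/EBP-type match in capitals.
Lcn2 probe, chr2:32241037-32241281, minus strand: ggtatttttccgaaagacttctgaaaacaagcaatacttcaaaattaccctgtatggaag
Lcn2 upstream, chr2:32387740-32387989, minus strand: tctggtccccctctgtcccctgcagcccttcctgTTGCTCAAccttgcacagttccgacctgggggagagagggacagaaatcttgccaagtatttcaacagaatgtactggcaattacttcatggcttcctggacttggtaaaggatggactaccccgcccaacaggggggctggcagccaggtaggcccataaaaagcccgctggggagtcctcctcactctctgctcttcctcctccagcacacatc

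Markers of other liver cells differed between the genotypes in the same samples, and their part in the Lcn2 result and in those of the other members was not tested. Of 13 macrophage markers, 10 and 7 were well above background on the control arrays without and with palmitate, against 12 and 11 in Drp1LiKO. The summed macrophage level was 22.9 and 27.2 times the 75th percentile in control and 52.5 and 50.1 in Drp1LiKO. The 8 stellate cell markers summed to 0.846 and 1.03 in control and to 9.19 and 12.2 in Drp1LiKO, where most of the sum was Dcn, which read 2.94 and 3.49. The 7 endothelial markers summed to 0.720 and 0.617 in control and to 2.79 and 1.53 in Drp1LiKO. The 5 cholangiocyte markers summed to 60.5 and 57.1 in control and to 41.8 and 43.6 in Drp1LiKO. Most of that sum was Spp1, which differed by −0.60 and −0.40. Of the 4 cholangiocyte markers tested, 2 were higher and 2 lower in untreated Drp1LiKO cells, and 1 was higher and 3 lower with palmitate. The 11 neutrophil markers summed to 35.5 and 40.7 in control and to 37.0 and 42.8 in Drp1LiKO, with between 2 and 4 of them above background, and most of the sum was Csf3r, which read 5.09 to 5.35. Of the neutrophil list, S100a9, Mpo, Ngp, Camp, Ltf, Retnlg and Mmp8 stayed below that limit on all 4 arrays, as did Timd4, a marker of resident Kupffer cells. Ly6g was well above background on both Drp1LiKO arrays and on neither control array, at least 4.84-fold higher in Drp1LiKO untreated and at least 2.67-fold with palmitate. S100a8 was well above background on both palmitate arrays alone, where it was higher in Drp1LiKO by 2.39 on the log2 scale. Over the hepatocyte list the median difference between genotypes was 0.71 in untreated cells and 0.78 under palmitate, beside −0.02 and −0.03 over all genes. Of its 10 genes, 4 and 5 were at least 2-fold higher in Drp1LiKO, where 8.84% and 7.26% of all genes tested were.

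Lcn2 had the widest range of the members, 2.47 log2 units, and the genes whose centred profiles lay nearest to it were sought among 16611 genes well above background on all 4 arrays. The nearest with a gene symbol were Snx20 (root mean square distance 0.0285), Aebp1 (0.0981), Mapt (0.103) and Tmeff1 (0.109), and the other of the nearest 5, at 0.104, was a transcript of chromosome 5 without a symbol. Snx20, a sorting nexin, had genotype differences of 1.71 untreated and 1.96 with palmitate, against 1.67 and 2.02 for Lcn2. Likeness over 4 arrays of 4 groups is a description only.

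Over the 10 members, the comparison of untreated cells gave 3 genes at least 2-fold different, with Lcn2 higher and Saa1 and Saa2 lower, where 14.4% of 19874 genes tested differed by as much (8.84% higher and 5.59% lower). With palmitate the same 3 genes passed, where 11.5% of 18890 genes did (7.26% higher and 4.26% lower). The median difference of the members was −0.26 untreated and −0.22 with palmitate, beside −0.02 and −0.03 over all genes. Untreated, the members' median was −0.41 with the mean over probes and −0.44 under median scaling, where that of all genes was −0.20. With palmitate it was −0.36 under median scaling, beside −0.17. For all 10 members the 2 Drp1LiKO arrays lay on the same side of the 2 control arrays, 7 below and 3 above (Lcn2, Fga and Fgg), or 8 below and 2 above if Fga is read on its second probe, and this was so for 58.4% of all 20614 genes, 31.5% below and 26.9% above. Beyond 2 scanner errors in both comparisons were 7 of the 10, the exceptions being Orm1, Orm2 and Fgb.

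**Figure D2:**
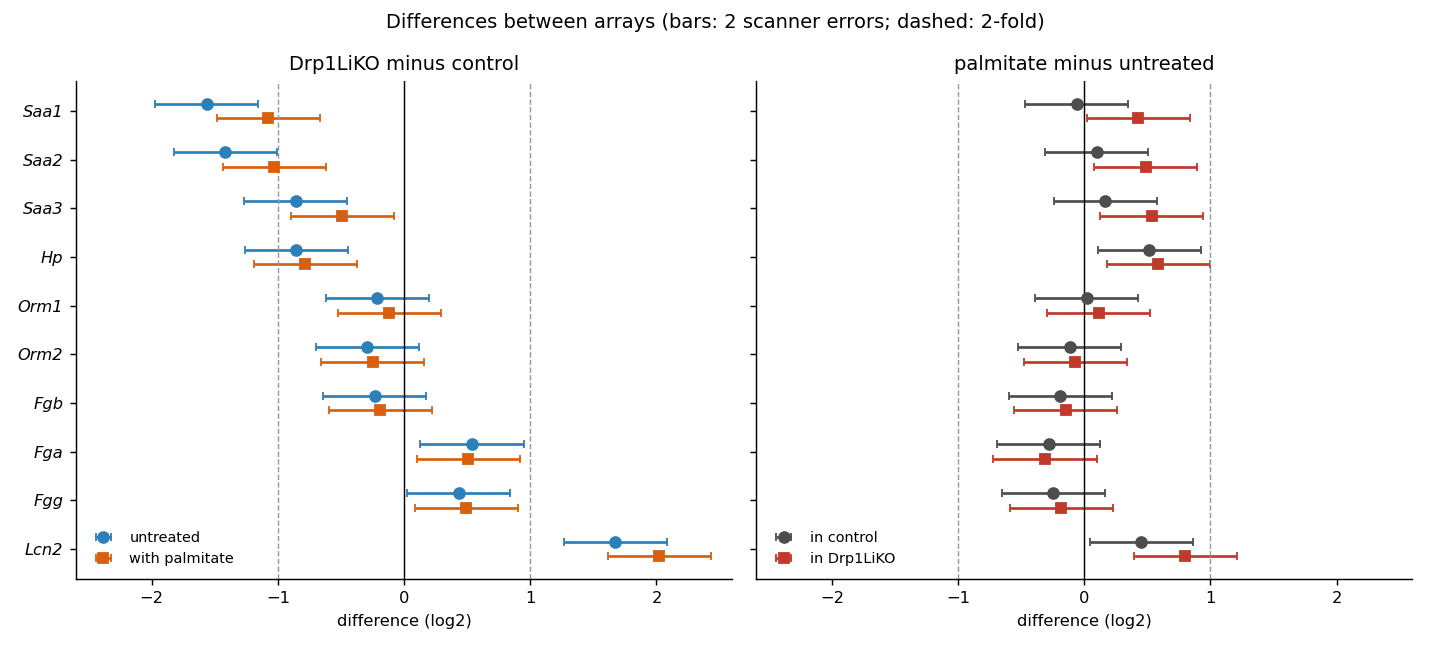
Log2 differences (horizontal axis) of each acute phase gene, left Drp1LiKO minus control in untreated cells (circles) and with palmitate (squares), right palmitate minus untreated in control (circles) and in Drp1LiKO (squares); bars are 2 scanner errors and dashed lines mark 2-fold. Saa1, Saa2 and Lcn2 pass 2-fold between the genotypes on both slides, and no member passes 2-fold with palmitate on the probe shown.

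**Figure D3:**
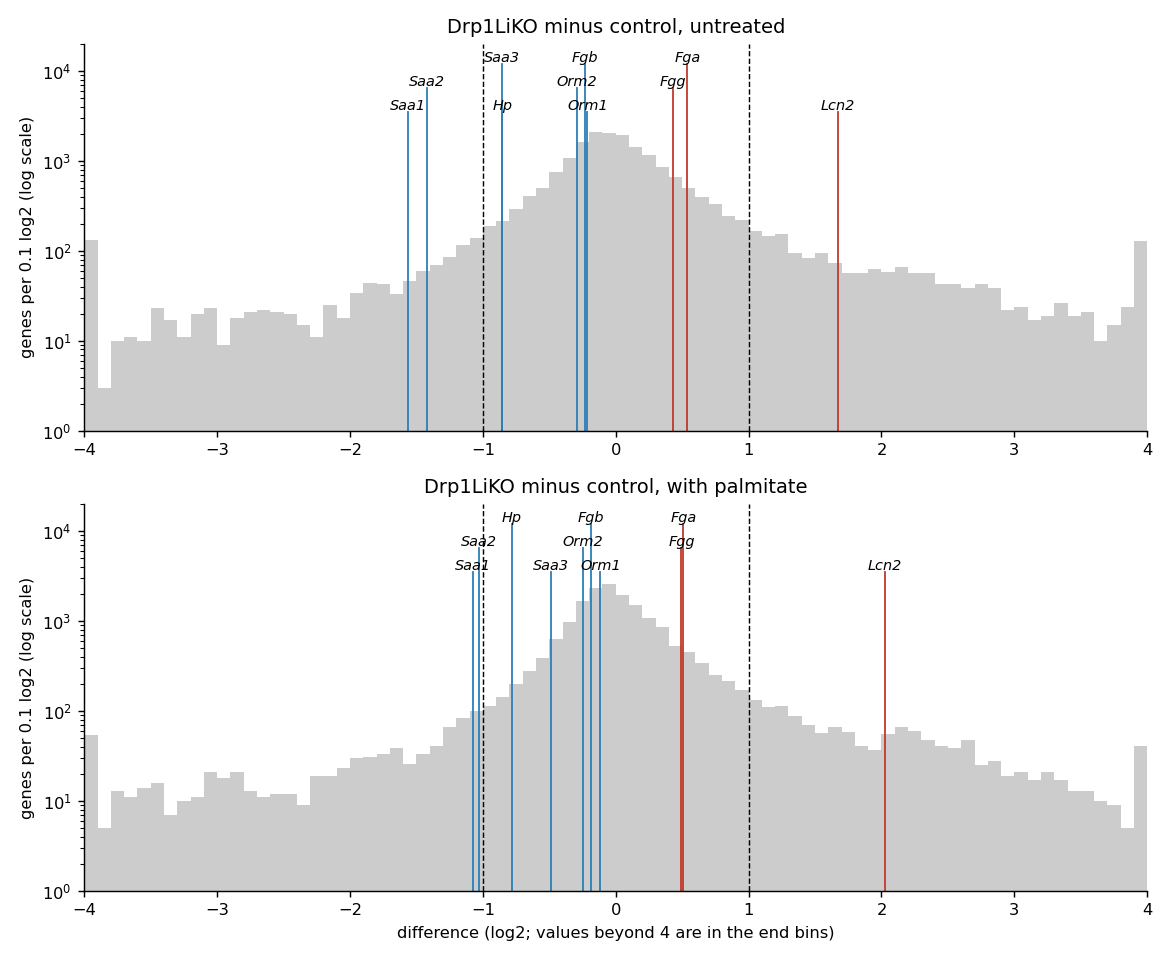
Number of genes per bin of the log2 difference (vertical axis on a log scale) between Drp1LiKO and control in untreated cells (top) and with palmitate (bottom), with the acute phase genes as lines, red where higher and blue where lower in Drp1LiKO, and dashed lines at 2-fold. Lcn2 lies in the upper tail in both, Saa1 and Saa2 lie in the lower tail, and the other 7 members lie within 2-fold on the probe shown.

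The additive limma model over all 4 arrays, with genotype and palmitate as terms, called 0 of 20614 genes by genotype (0%), and 5362 genes had an unadjusted p under 0.05. The smallest limma adjusted p among the members was 0.119, for Lcn2, whose mean genotype difference over both slides was 1.85, and the largest was 0.318, for Orm1. Of the members, 7 had an unadjusted p under 0.05. The palmitate term called 0 genes (0%), 1995 had an unadjusted p under 0.05, and the members' limma adjusted p ran from 0.511 to 0.715. When the variance was allowed to follow intensity, 9 of the 10 members passed the genotype test, all but Orm1 (Lcn2, Fga and Fgg higher, the others lower, with Fga on its brighter probe only), where 26% of all 20614 genes did. When the fit was limited to the 16611 genes that every array showed well above background, 6 members passed, namely Saa1, Saa2, Lcn2, Hp, Fga and Fgg, where 15.6% of those genes did. With 4 arrays and 3 coefficients, 1 degree of freedom remains for the spread, and any interaction of genotype and palmitate is counted in it. Nothing states that the arrays came from separate animals, so these p-values measure the spread between these arrays only.

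Read on the probe that stands for each gene, no member passed 2-fold between the palmitate and the untreated array of its genotype, while the second Fga probe was 2.04-fold higher with palmitate in Drp1LiKO. In control cells 0 members differed at least 2-fold, where 5.7% of 18772 genes did, and in Drp1LiKO cells 0 did, where 7.04% of 19746 genes did. Beyond 2 scanner errors were 2 members in control (Lcn2 and Hp) and 5 in Drp1LiKO (Saa1, Saa2, Saa3, Lcn2 and Hp), all of them higher. The median response was −0.02 in control and 0.27 in Drp1LiKO, beside 0.01 and 0.00 over all genes. The response was higher in Drp1LiKO for 9 of 10 members, all but Fga, whose second probe had a higher response there by 1.20, and 49.6% of all genes had a higher response. For those 9 the responses differed by between 0.04 (Orm2 and Fgb) and 0.49 (Saa1). The scanner's error was not carried over to a difference of 2 responses, which holds the readings of 4 arrays, so no limit of 2 errors is set here. The median difference between the responses was 0.08 over the members and 0.00 over all genes, and it was 0.22 with the mean over probes. This difference has no test with 1 array per group.

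Interleukin 6, the main inducer of the fibrinogen and haptoglobin genes, was read for context. The Il6 probe (chr5:30346367-30346426) gave no signal well above background in untreated control cells. It read −3.52 in untreated Drp1LiKO cells, −3.37 in control with palmitate and −0.07 in Drp1LiKO with palmitate, so the Drp1LiKO palmitate array stood above the others. Il6 was at least 2.33-fold higher in untreated Drp1LiKO than in untreated control cells, and within control it was higher on the palmitate array by at least 2.58-fold. Between the palmitate arrays it was higher in Drp1LiKO by 3.29 on the log2 scale, and within Drp1LiKO it was higher with palmitate by 3.44. A second Il6 probe, well above background on both Drp1LiKO arrays alone, gave 3.46 for the latter. The array with the highest Il6 thus read Saa1, Saa2, Saa3 and Hp below both control arrays, and by less also Orm1, Orm2 and Fgb. It read Lcn2 and Fgg above both control arrays. Fga lay above them on its main probe and below them on its second.

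The other ligands of the pathway followed Il6 in part. Of 9 ligands on the list, 6 were tested in untreated cells and 7 with palmitate, on the probe that stands for each gene. At least 2-fold different were 3 and 4 of them, all higher in Drp1LiKO, although Il1a, one of the 4, has a bound of only 1.604-fold. Of all genes, 14.4% and 11.5% differed by as much. Tnf differed by −0.07 untreated and 0.11 with palmitate on its main probe. A second Tnf probe, not well above background in control with palmitate, gave −1.74 and 2.49, so the result for Tnf depends on the probe. Il1b, which encodes interleukin 1 beta, was not well above background in untreated control and read −3.42 in Drp1LiKO, −1.91 in control with palmitate and 0.05 in Drp1LiKO with palmitate. Il1b was at least 2.50-fold higher in untreated Drp1LiKO than in control and 1.96 higher on the log2 scale with palmitate. Il11, a gp130 ligand, had a genotype difference of 1.64 untreated and was at least 16.5-fold higher in Drp1LiKO with palmitate, where the control array was not well above background. Il1a was well above background on the Drp1LiKO palmitate array alone. The macrophage and stellate cell marker levels given above moved with these genes between the genotypes, and their part in the result was not tested.

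Of 16 receptors and transducers tested, 0 differed at least 2-fold in untreated cells, where 14.4% of all genes did. With palmitate 1 did, where 11.5% of all genes did: Il1r1, the receptor of interleukin 1, lower in Drp1LiKO by 1.16 on the log2 scale after a difference of −0.90 in untreated cells. Il6st, which encodes gp130, read 1.55 in control, 0.97 in Drp1LiKO, 1.33 in control with palmitate and 0.70 in Drp1LiKO with palmitate, with differences of −0.58 and −0.63. Il6ra, the interleukin 6 receptor, differed by −0.36 and −0.24 on its main probe and by 0.14 and 0.10 on another, so its direction depends on the probe. The list's median was −0.32 untreated and −0.15 with palmitate, beside −0.02 and −0.03 over all genes.

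Among 9 transcription factors, 0 differed at least 2-fold between the genotypes on the probe that stands for each gene. Of all genes, 14.4% did untreated and 11.5% with palmitate. Between palmitate and untreated arrays 2 of the 9 did on that probe, in both genotypes, where 5.7% of all genes did in control and 7.04% in Drp1LiKO. Cebpd, an acute phase C/EBP factor, read 1.66 in control, 1.42 in Drp1LiKO, 3.02 in control with palmitate and 2.97 in Drp1LiKO with palmitate, with responses of 1.37 and 1.55. Nfkbiz, an inducible partner of NF-kB, had responses of 1.25 and 1.38. Both palmitate arrays stood above both untreated arrays for these genes, and palmitate and slide cannot be told apart. Stat3 was higher in Drp1LiKO by 0.56 and 0.36, and Cebpb differed by 0.09 untreated and 0.48 with palmitate. Of 8 feedback inhibitors 0 passed 2-fold between the genotypes untreated and 1, Socs3, did with palmitate, beside the same 14.4% and 11.5% of all genes. Socs3, the STAT3 target that shuts off gp130 signalling, read −0.81 in control, −0.79 in Drp1LiKO, −0.57 in control with palmitate and 0.63 in Drp1LiKO with palmitate. Like Il6, it stood apart on the Drp1LiKO palmitate array, with responses of 0.24 in control and 1.43 in Drp1LiKO.

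**Figure D4:**
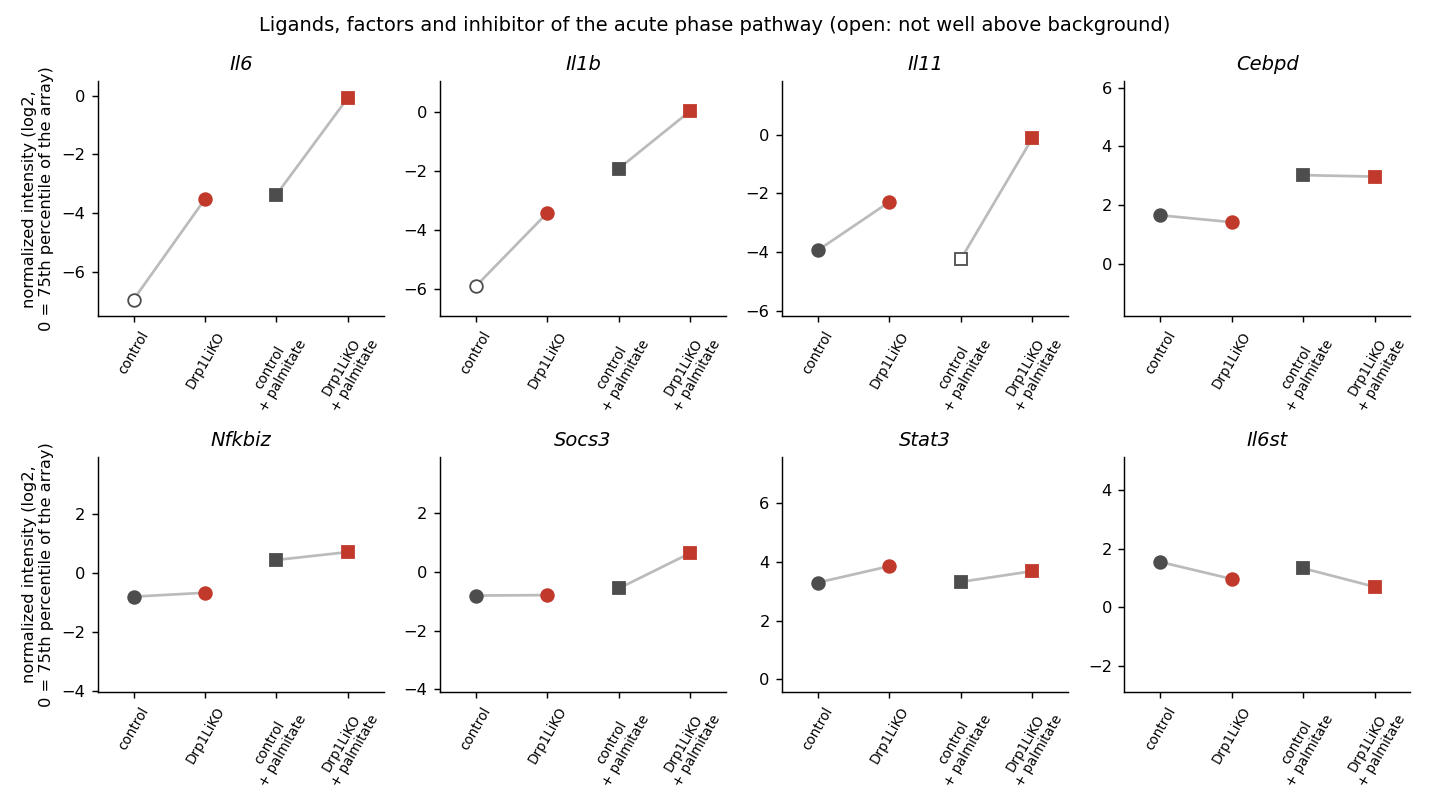
Normalized log2 intensity (vertical axis, 0 is the 75th percentile of the array) of 8 genes of the acute phase pathway on the 4 arrays, control in grey and Drp1LiKO in red, circles untreated and squares with palmitate, open symbols not well above background; every panel spans the same range. Il6, Il1b and Il11 are highest on the Drp1LiKO palmitate array, Socs3 stands apart on that array, and Cebpd and Nfkbiz are higher on both palmitate arrays.

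Other positive acute phase genes were read in the same way. Of 32 on the list, 31 were tested in untreated cells, where 4 were lower at least 2-fold in Drp1LiKO (Crp, Hamp, Steap4 and Vnn1) and 0 higher. With palmitate 29 were tested, with 2 lower (Hamp and Steap4) and 1 higher (Il1rn). Counted in either direction, these shares are near those of all genes, 14.4% and 11.5%. By direction, 5.59% of all genes were lower and 8.84% higher untreated, and 4.26% were lower and 7.26% higher with palmitate. The list's median was −0.14 untreated and 0.00 with palmitate, beside −0.02 and −0.03 over all genes. Between palmitate and untreated arrays, Crp was at least 3.43-fold lower with palmitate in control and Steap4 at least 1.84-fold higher in Drp1LiKO. Hamp2 also read lower with palmitate in control, by 1.04 on the log2 scale, but it was not well above background there and no bound on the fold can be given. Hamp, which encodes hepcidin, the iron hormone that interleukin 6 induces, read 5.64 in control, 3.66 in Drp1LiKO, 5.69 in control with palmitate and 4.58 in Drp1LiKO with palmitate. Its differences of −1.98 and −1.11 had the direction of those of Saa1 and Saa2, and its responses to palmitate of 0.04 in control and 0.92 in Drp1LiKO likewise narrowed the gap. Steap4, a metalloreductase, was at least 3.74-fold lower in untreated Drp1LiKO cells and lower by 1.82 on the log2 scale with palmitate. Crp was well above background in untreated control cells and in no other group. Around its spot 2 of 24 neighbours were lit on that array alone and 3 on the untreated Drp1LiKO array alone, against means of 0.290 and 0.597 per spot. Apcs, serum amyloid P, the pentraxin that marks the acute phase in mice, differed by −0.14 and −0.60. Vnn1 and Il1rn are named because their counts are small, after their values were seen.

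Of 13 negative acute phase genes, 2 were at least 2-fold higher in Drp1LiKO on both slides (Ahsg and Apoa4) and 1 lower (Serpina7). Of all genes tested, 8.84% were higher and 5.59% lower by as much untreated, and 7.26% and 4.26% with palmitate. Ahsg, which encodes fetuin-A, read 4.72 in control, 6.36 in Drp1LiKO, 4.69 in control with palmitate and 6.45 in Drp1LiKO with palmitate, with differences of 1.64 and 1.76. Apoa4, an apolipoprotein, differed by 1.49 and 1.36, and Serpina7, thyroxine-binding globulin, by −2.11 and −2.25. Albumin (Alb) differed by 0.20 and 0.28 on its main probe and by −0.15 and −0.04 on another. Transthyretin (Ttr) differed by 0.50 and 0.50. The list's median was 0.20 untreated and −0.02 with palmitate, beside −0.02 and −0.03 over all genes. Between palmitate and untreated arrays 0 of its genes passed 2-fold in either genotype. Of all genes, 5.7% did in control and 7.04% in Drp1LiKO.

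Motif matches were counted in the 250 upstream bases of the 8 members with a promoter entry, on both strands. Hp and Orm1 had no entry. The C/EBP-type motif TTGCNNAA was found in 7 of 8, all but Fgg, and in 9.56% of 32851 promoters of the same length. The NF-kB-type motif, written as GGG and CC with any 5 bases between, was found in Saa1, Saa2, Lcn2 and Fgg and in 45.8% of all. The STAT3-type motif TTCNNNGAA was found in Fga and Fgb and in 7.02% of all, and the IL-6 type II element CTGGGA in Fga, Fgb and Fgg and in 27% of all. The motif letters can overlap, as 2 NF-kB-type matches do in Fgg. Lcn2, which was higher in Drp1LiKO, and Saa1 and Saa2, which were lower, held the same pair of motifs. A match is a stretch of letters and not a bound site. The matches of the other 3 members with a C/EBP-type motif are shown with 10 bases on each side, from RefSeq on GRCm38.p6, capitals marking the match.
Orm2 window, chr4:63362319-63362346, plus strand: agagaacattTTGCGCAAgacatttccc
Fga window, chr3:83026008-83026035, plus strand: ctacagagaaTTGAGCAAgagtttctgg
Fgb window, chr3:83049926-83049953, minus strand: tgggaagatgTTGCTCAAatgataaagc

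**Figure D5:**
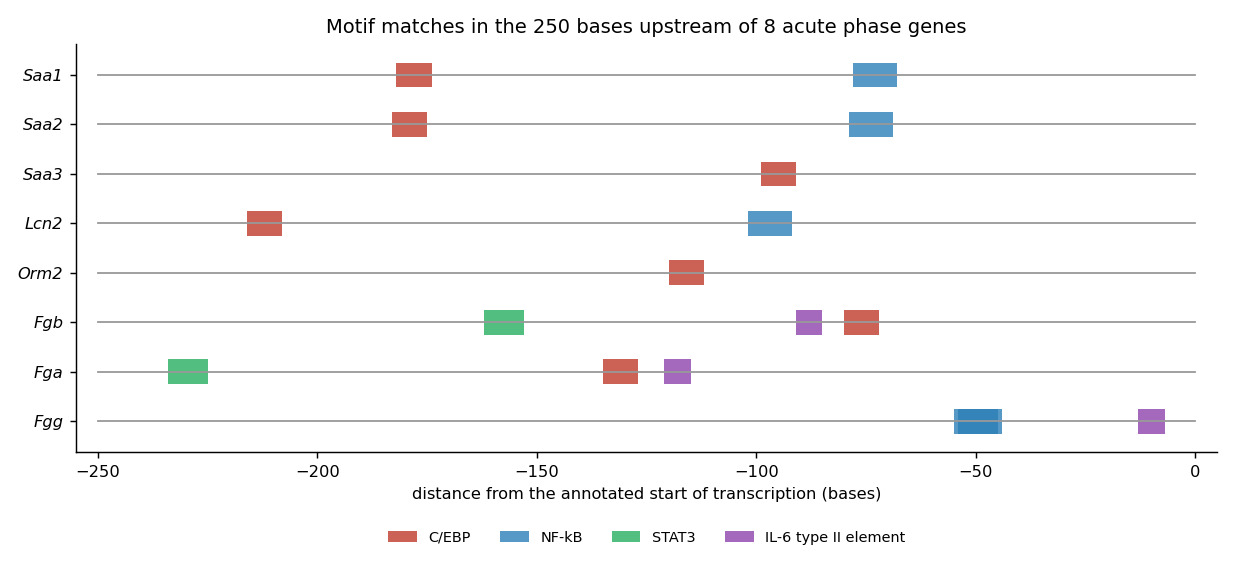
Positions of motif matches (horizontal axis, bases from the annotated start of transcription) in the 250 bases upstream of 8 acute phase genes, with 1 colour per motif. C/EBP-type matches are present in all but Fgg, NF-kB-type matches in Saa1, Saa2, Lcn2 and Fgg, and STAT3-type matches in Fga and Fgb.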

How the data were processed

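RNA of the 4 cultures was labelled with Cy3 and hybridised to a mouse array of 60-base probes with 62976 spots. In the deposited tables of the scanner, values are linear intensity, background-subtracted within each array by the authors' software. The file headers name Feature Extraction 10.7.1.1 and the submitters' processing notes 9.5.1.1. The authors also deposited a value table of intensity on a linear scale, whose columns share 1 distribution and keep each array's rank order over 56603 probes. Its median was 18.1 in every column. It served as an alternative, and how it was made is not given in the sources used here. Labels and methods name different RNA kits. By its label, the untreated control array shares raw data with a sample of another series. Nothing states whether arrays came from separate animals.

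The processed signal was log2-transformed, and each array's 75th percentile was subtracted (an intensity of 485, 542, 424 and 468 for control, Drp1LiKO, control with palmitate and Drp1LiKO with palmitate). Control spots and 47 to 71 outlier spots per array were left out, and repeat spots were averaged (median SD 0.04 within an array). The probe with the highest mean stood for its gene, and the counts over gene lists rest on it. A gene counted as different at 2-fold or more (1 log2 unit) with its probe well above background on at least 1 of 2 arrays. Where it was above background on 1 array only, the fold is a lower bound, taken against the dim probe's own value or, if that is less, the lowest value well above background on its array. Genotype and palmitate entered an additive model in limma 3.58.1 (R 4.3.3, lmFit, eBayes, two-sided, Benjamini-Hochberg over all genes, adjusted p under 0.05) and the script was tested on simulated data.

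Members, lists and tests were chosen with earlier results of these data known. Named genes were the members, Il6, Dnm1l, 10 fixed pathway genes, the genes nearest to the member of widest range, and list genes at least 2-fold different in the same direction on both slides or with palmitate in both genotypes. Nfkb1 and Tnf are named because their probes disagree, after their values were seen. Alternatives were normexp background correction with an offset of 50, median scaling, quantile normalization, the deposited value table, other filters, a floor, the mean over probes and an intensity trend in limma. Sequences came from the scanner tables (probes) and RefSeq, GRCm38.p6 (promoters). No protein sequence was used here.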

Additional observations from a re-analysis of the deposited data

How the results depend on the processing

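Of 320 comparisons of single members with an alternative, 310 kept their direction and their side of 2-fold. Many of these could not change. Each other filter and the floor gave 40 unchanged comparisons, because every member was well above background on all 4 arrays. The mean over probes could move Lcn2 and Fga alone, and the deposited value table gave nearly the values of quantile normalization. The 310 is therefore not a measure of robustness. Median scaling moved the median of all genes to −0.20 in untreated cells and to −0.17 with palmitate, and it raised the number of members at least 2-fold different in untreated cells from 3 to 5, with Saa3 at −1.04 and Hp at −1.04. Relative to that shift both stay within 2-fold. With palmitate the number was 1 under quantile normalization and 1 in the deposited value table, where Saa1 was −0.99 and −0.99 and Saa2 −0.91 and −0.91. With the mean over probes Fga was −0.54 between the genotypes in untreated cells and 0.36 for palmitate in Drp1LiKO. The palmitate response of Orm1 in control was −0.01 under normexp and −0.04 under median scaling. The number of members called by limma for genotype, 0 in the model as fitted, was 9 with an intensity trend, 6 with genes well above background on all arrays and 4 under normexp (where 7.37% of all genes were called), and it was 0 under median scaling, quantile normalization and the deposited value table. For palmitate it was 1 with an intensity trend (Hp, where 0.902% of all genes were called) and 0 otherwise. The cause of these shifts was not tested. No array could be left out, since each group holds 1. No paired analysis was possible because the labels carry no replicate numbers and each group has 1 array. Where a probe was not well above background on an array, as for Il6, Il1a, Il1b, Crp, Steap4 and Hamp2, no more than a bound can be given.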
